A study of Homo sapiens with 14 samples.

Results

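Olfactory receptor (OR) genes carried 2285 of the 152412 distinct intervals found near gene starts by chromatin immunoprecipitation with sequencing (ChIP-seq) for STAT5 and BCL6 in DLD-1, an established cell line from a human colorectal adenocarcinoma. An interval was taken as an OR interval when the gene symbol beside it had the form of an OR symbol, that is OR, a family number, subfamily letters and a member number. A symbol with a final P was counted as a pseudogene and any other as a functional gene. By this rule 540 OR genes had at least 1 interval, 345 of them functional and 195 pseudogenes.

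The cells were transfected with pEGFP-C1199Tiam1, a plasmid for a TIAM1 construct meant to activate RAC1/PAK1, and given vehicle (activator) or, for 16 h, the RAC inhibitor EHT 1864 at 20 microM (inhibitor); control cells received an empty vector. Chromatin was taken 20 h after transfection and precipitated with rabbit polyclonal antibodies; all groups share the DLD-1 line and transfection with Lipofectamine. Of 14 libraries, the 9 used here are 2 activator STAT5, 3 inhibitor BCL6, 2 control STAT5 and 2 control BCL6 libraries, while the other 5 were not analysed here. Whether libraries of a group stem from separate cultures is not stated, so their spread may be technical.

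ORs are odorant-sensing receptors of the G protein-coupled superfamily. An olfactory neuron normally expresses a single OR allele, and the remaining OR genes are held in silent heterochromatin there. Human OR genes lie in tandem clusters on most chromosomes, many have decayed into pseudogenes, and class I genes (families OR51, OR52, OR55 and OR56) form 1 cluster on chromosome 11 that surrounds the beta-globin genes. A few ORs have been reported outside the nose, colon cells included. STAT5 is a cytokine-activated transcription factor that binds TTCNNNGAA, and BCL6 is a zinc finger repressor that can bind similar sequences.

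The sequences at 3 ORs whose treated interval reached the stretch from 250 bases before to 50 after the gene start give examples of the DNA in or beside treated intervals. They were eligible because the gene model in the files had the same length, within 1 base, as that in the RefSeq promoter table, with an ATG at base 251; 5 ORs met this and 3 are printed. OR10AD1 has an activator STAT5 interval that overlaps a control BCL6 peak, OR6C70 has the only copy of the motif among the 5, and OR1A2 is an OR reported outside the nose. They are given 5′ to 3′ from RefSeq, GRCh38.p14, for chr12:48203243-48203542 (minus strand), chr12:55470089-55470388 (minus strand) and chr17:3197269-3197568 (plus strand), and capitals mark the motif TTCNNNGAA.
OR10AD1: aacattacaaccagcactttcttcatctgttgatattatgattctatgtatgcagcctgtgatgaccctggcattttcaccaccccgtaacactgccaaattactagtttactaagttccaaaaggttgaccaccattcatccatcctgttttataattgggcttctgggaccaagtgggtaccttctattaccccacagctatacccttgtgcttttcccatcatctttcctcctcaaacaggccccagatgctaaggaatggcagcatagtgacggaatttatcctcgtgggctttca
OR6C70: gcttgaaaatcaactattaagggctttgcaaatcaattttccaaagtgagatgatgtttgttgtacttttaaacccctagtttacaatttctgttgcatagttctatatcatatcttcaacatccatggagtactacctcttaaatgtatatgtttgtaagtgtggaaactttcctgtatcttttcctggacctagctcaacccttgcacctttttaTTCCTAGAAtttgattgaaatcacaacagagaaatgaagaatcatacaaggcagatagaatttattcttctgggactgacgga
OR1A2: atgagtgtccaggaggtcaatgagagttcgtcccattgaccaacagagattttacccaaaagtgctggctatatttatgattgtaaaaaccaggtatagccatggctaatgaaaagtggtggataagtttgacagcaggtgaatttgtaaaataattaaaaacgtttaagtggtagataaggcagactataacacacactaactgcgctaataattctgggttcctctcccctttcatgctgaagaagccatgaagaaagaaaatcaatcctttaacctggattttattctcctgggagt
The motif in OR6C70 starts at base 218 of the 300 printed. The pattern reads the same on both strands and was present in 47 of 312 OR promoters of this length in the table (15.1%) and in 2152 of all 27305 promoters (7.88%). Among promoters of ORs in the activator STAT5 list it was in 13 of 92 (14.1%), and in the inhibitor BCL6 list in 1 of 11. For ORs in the control STAT5 and control BCL6 lists it was 36 of 238 (15.1%) and 42 of 251 (16.7%). OR promoters had a median G+C content of 37.7%, against 58.3% over all promoters, and whether the difference in base content moves with the motif was not tested. A match is a run of letters, not a site.

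The OR10AD1 interval ran from 254 bases before to 9 bases after the start and had activator STAT5 values of 2 and 3, and control BCL6 values of 2 and 0 in the shared list. The OR6C70 interval, with 5 and 3 in the activator STAT5 libraries, ran from 26 bases before to 206 after the start, so it begins near the downstream end of the printed motif. The OR1A2 interval ran from 140 to 54 bases before the start, with a value of 2 in either activator STAT5 library. OR6C70 was thus the highest of the 3, and OR1A2 stood at the lowest value that an interval can have.

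The values are 1 whole number per interval and library, deposited by the authors with no name for the quantity and read here as a count of reads. Every value was 0 or at least 2. The depth of the libraries is unknown. Values are not compared between treated and control lists, because 1 library sufficed to enter a control interval and every library was needed for a treated one. Treated lists also hold no base of a control peak of the same antibody, so a treated interval beside such a peak may be part of a wider one. Intervals of confidence below are exact Clopper-Pearson, or Newcombe for a difference, at 95%, and they cover counting error only, since neighbouring OR genes are not independent.

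The activator STAT5 list held 216 OR intervals of 14047 (1.54%), at 177 OR genes. The inhibitor BCL6 list held 21 of 1652 (1.27%), at 21 OR genes. The control STAT5 list held 997 of 68320 (1.46%) at 468 OR genes, and the control BCL6 list 1051 of 68393 (1.54%) at 486. ORs thus took between 1.27% and 1.54% of the lists. The reference table held 864 OR symbols, 411 functional and 453 pseudogenes, of which 324 were in no list. By its own gene type, 27 of the 411 are pseudogenes and 6 of the 453 are protein-coding. In the lists, 17841 of the 44178 gene identifiers had no symbol, so an OR without an interval and an OR without a symbol cannot be told apart.

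In activator STAT5 cells, 177 of 864 ORs (20.5%, 17.8 to 23.3%) had an interval, against 12.8% of all 59778 symbols in the reference table. In inhibitor BCL6 cells the share was 2.43% of ORs against 1.6% of all symbols. In control STAT5 cells it was 54.2% against 37.8%, and in control BCL6 cells 56.2% against 37.4%. The OR share was thus above that of all symbols in 4 lists, but for inhibitor BCL6 the interval of the OR share, 1.51 to 3.69%, holds the share of all symbols. The gap narrowed when only symbols with an interval in at least 1 list were counted. Of 540 such ORs, 32.8% had an activator STAT5 interval, against 29.2% of 26136 symbols. For inhibitor BCL6 it was 3.89% against 3.66%. For control STAT5 it was 86.7% against 86.5%, and for control BCL6 90.0% against 85.6%. These symbols are chosen by the same lists, so the narrowing follows in part from the rule.

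Functional ORs had intervals more often than pseudogene ORs in every list when all reference symbols were counted. In the activator STAT5 list 116 of 411 functional ORs (28.2%) and 61 of 453 pseudogene ORs (13.5%) had an interval, a difference of 14.8 percentage points (9.37 to 20.1). In the inhibitor BCL6 list 15 functional ORs (3.65%) and 6 pseudogene ORs (1.32%) did, a difference of 2.33 points (0.23 to 4.72). The difference was 39.2 points in control STAT5 and 39.8 points in control BCL6. Outside the family, genes were divided by the gene type of the reference and not by symbol. Other protein-coding genes and other pseudogenes differed in the same direction, with 26.0% of 19662 and 9.48% of 16408 in the activator STAT5 list.

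The split was smaller among listed genes. A gene is listed only through an interval in these same lists, mostly the control lists. This rule draws the shares together, so the smaller split is not a result about ORs. Of the reference, 66 functional ORs and 258 pseudogene ORs had no interval in any list. Among listed ORs, 33.6% of the 345 functional and 31.3% of the 195 pseudogene ORs had an activator STAT5 interval, a difference of 2.34 points whose interval runs from -5.98 to 10.3. For control STAT5 the difference among listed ORs was 6.42 points (0.427 to 13), for control BCL6 5.22 points (-0.0622 to 11.2) and for inhibitor BCL6 1.27 points (-2.59 to 4.44).

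**Figure D1:**
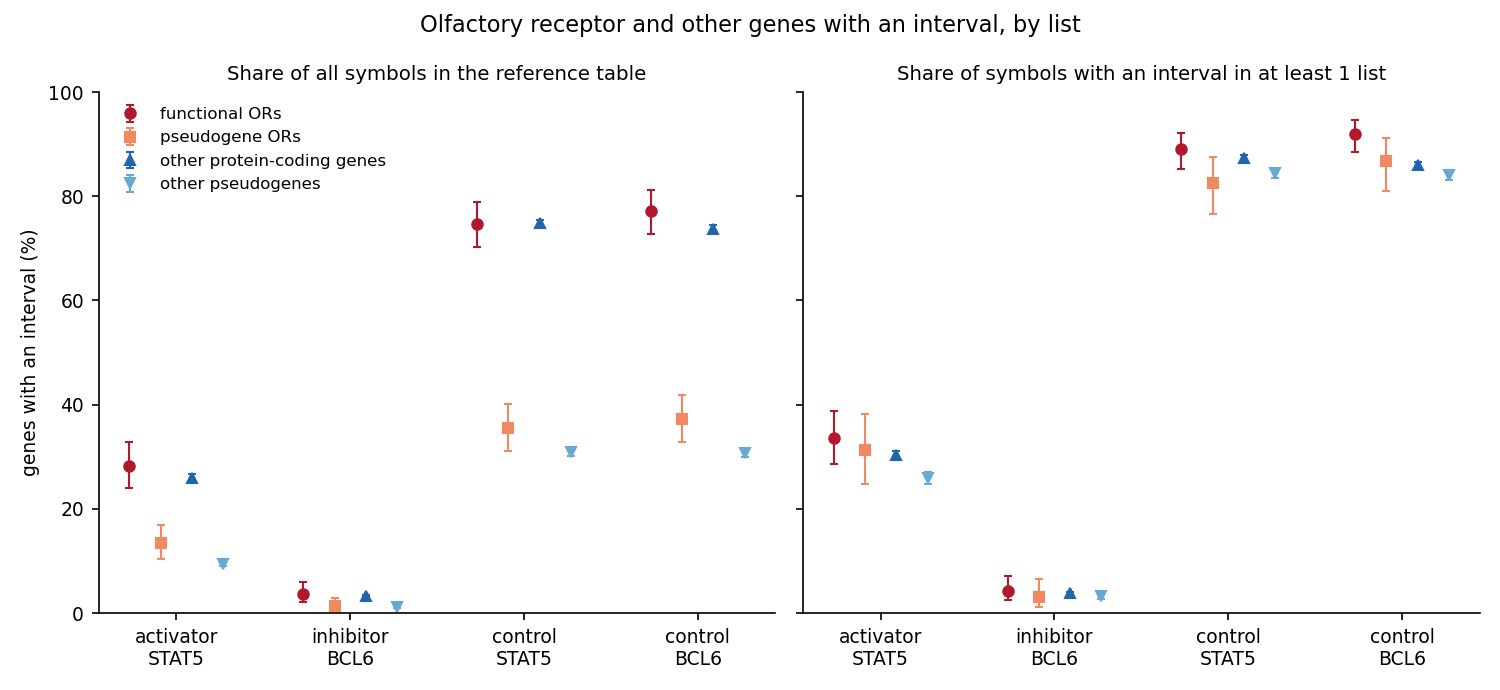
Share of functional ORs, pseudogene ORs, other protein-coding genes and other pseudogenes with an interval (y axis, percent) in each list; points are shares and bars 95% Clopper-Pearson intervals. On the left, over all symbols of the reference, functional and pseudogene ORs stand apart (28.2% and 13.5% in activator STAT5). On the right, over symbols with an interval in at least 1 list, they lie close together (33.6% and 31.3%). Symbols on the right are chosen by these same lists, which draws the shares together.

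Functional ORs were also set against the protein-coding genes around ORs, that is the 5 nearest on either side of each OR, 1087 genes in all. Pseudogene ORs counted here as well, so some of these neighbours may lie near pseudogene ORs only. In the activator STAT5 list 28.2% of functional ORs and 23.6% of these neighbours had an interval, a difference of 4.58 points (-0.312 to 9.73). In the inhibitor BCL6 list the shares were 3.65% and 2.76%, a difference of 0.89 points (-0.944 to 3.32). Control STAT5 had 74.7% and 66.7%, and control BCL6 77.1% and 66.1%. Over all other protein-coding genes of the reference the shares were 74.9% in control STAT5 and 73.8% in control BCL6. They were 26.0% in activator STAT5 and 3.29% in inhibitor BCL6. Over the reference, functional ORs thus lay nearer to these shares than their neighbours did. Among listed genes the neighbours were the nearer ones in every list. For activator STAT5, listed functional ORs stood at 33.6%, neighbours at 30.7% and other protein-coding genes at 30.3%. In that order, inhibitor BCL6 gave 4.35%, 3.59% and 3.84%, control STAT5 89.0%, 86.7% and 87.4%, and control BCL6 91.9%, 85.9% and 86.0%. The pseudogene shares below are again over the reference. Pseudogene ORs and the 1079 neighbouring pseudogenes had shares of 13.5% and 8.06% in activator STAT5, 1.32% and 0.741% in inhibitor BCL6, 35.5% and 26.0% in control STAT5, and 37.3% and 24.2% in control BCL6.

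Chromosome 11 held 118 of the 216 activator STAT5 OR intervals (54.6%), 16 of the 21 inhibitor BCL6 OR intervals (76.2%), 502 of the 997 control STAT5 OR intervals (50.4%) and 543 of the 1051 control BCL6 OR intervals (51.7%). Over all genes this chromosome held between 5.69% and 7.02% of the intervals of the 4 lists, and it carries 241 of the 540 listed ORs. Among listed ORs, 36.9% of those on chromosome 11 and 29.4% of those elsewhere had an activator STAT5 interval. The difference of 7.5 points has an interval of -0.459 to 15.4. Over the reference it was 5.64 points (0.206 to 11.2). For inhibitor BCL6 the difference was 3.23 points over the reference (1.12 to 5.84) and 4.97 among listed ORs (1.64 to 8.96). Other protein-coding genes were also higher on this chromosome, with 34.9% of the 1039 listed there in the activator STAT5 list against 30.3% of all 16858, and 6.06% against 3.84% in the inhibitor BCL6 list.

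On chromosome 11 the activator STAT5 share was highest in 1 cluster. ORs no more than 1 Mb from the next were joined, which gave 19 clusters with 5 or more listed ORs, 4 of them on chromosome 11. Cluster 1 (chr11:3621936-7961067, GRCh37) holds the class I genes and 108 listed ORs, and 55 of these (50.9%, 41.1 to 60.7%) had an activator STAT5 interval. On chromosome 11 outside cluster 1, 34 of 133 ORs did (25.6%, 18.4 to 33.8%), which is below the 29.4% of ORs on other chromosomes by 3.87 points.

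Other genes inside cluster 1 had a high share as well. Of the 91 other gene starts listed in the span, 50 (54.9%, 44.2 to 65.4%) had an activator STAT5 interval, with 0.78 intervals per start against 0.704 per OR. Over all other gene starts listed, 28.6% of 43638 had one, with 0.36 intervals per start. Among the 48 protein-coding neighbours in cluster 1, 32 had an activator STAT5 interval, including HBB and HBG2 (beta-like globins), STIM1 (a calcium sensor of the endoplasmic reticulum), TRIM5 (a retroviral restriction factor) and RRM1 (the large subunit of ribonucleotide reductase).

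Control intervals were dense in cluster 1 as well, with 2.49 control STAT5 intervals per OR against 1.86 over all ORs, and 2.82 control BCL6 intervals per OR. Other starts in the cluster had 2.43 control STAT5 and 2.48 control BCL6 intervals each, against 1.75 and 1.74 over all other starts. Cluster 1 thus held 76 of the 216 activator STAT5 OR intervals (35.2%), 6 of the 21 inhibitor BCL6 OR intervals (28.6%), 269 of the 997 control STAT5 OR intervals (27.0%) and 305 of the 1051 control BCL6 OR intervals (29.0%). Whether copy number, mappability or base content moves with this density was not tested.

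Cluster 2 (chr11:48238363-48600989) has 10 ORs, no other listed start and 4 ORs with an activator STAT5 interval. In cluster 3 (chr11:55110628-59481318), 19 of 86 ORs (22.1%, 13.9 to 32.3%) and 27 of 70 other starts (38.6%, 27.2 to 51%) had an activator STAT5 interval, so the OR share was lower there, with confidence intervals that overlap. In cluster 4 (chr11:123625226-124439894), 9 of 29 ORs and none of 5 other starts did. Inhibitor BCL6 intervals were at 6 of 108 ORs in cluster 1, none of 10 in cluster 2, 6 of 86 in cluster 3 and 3 of 29 in cluster 4, against 10 of 91, 2 of 70 and 1 of 5 other starts in clusters 1, 3 and 4.

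**Figure D2:**
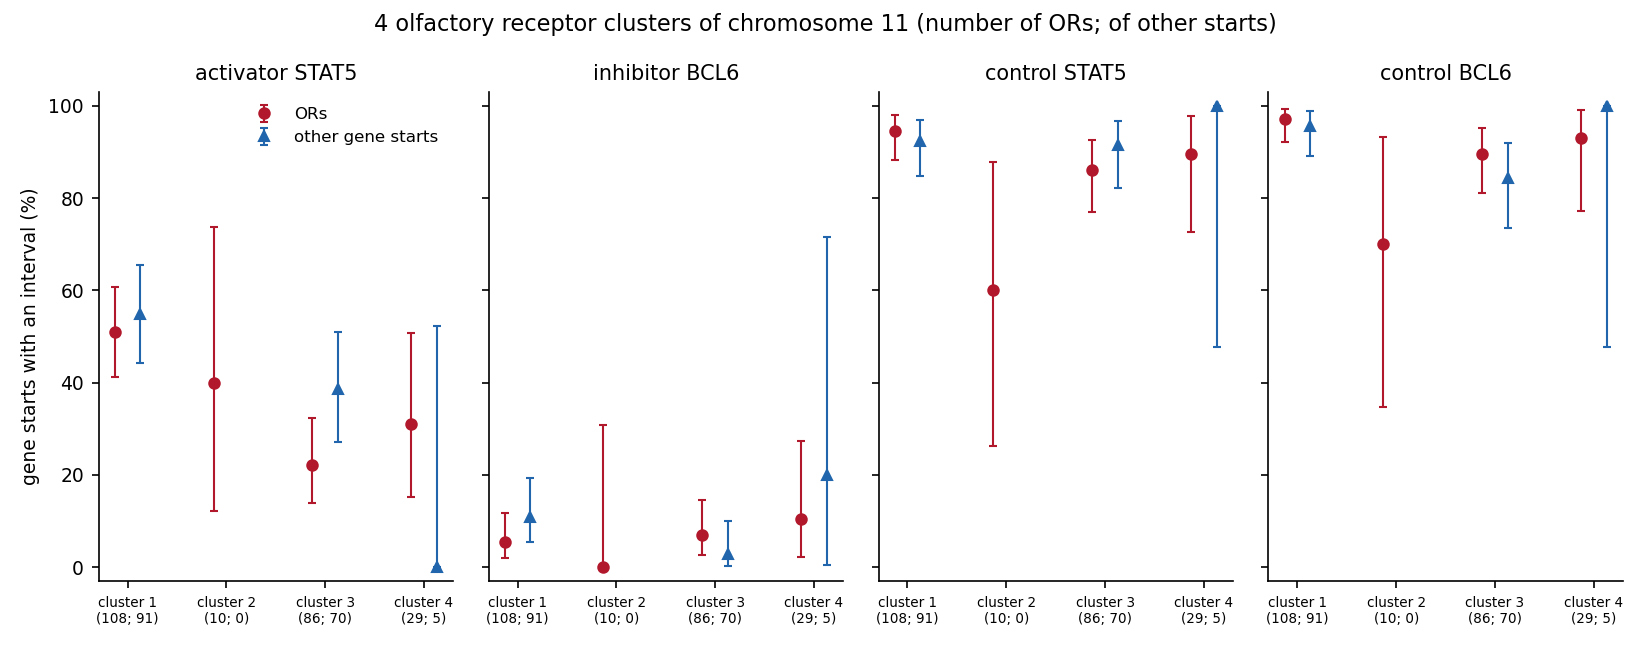
Share of gene starts with an interval (y axis, percent) for ORs (circles) and other listed starts (triangles) in the 4 chromosome 11 clusters, with 95% Clopper-Pearson intervals; each panel is a list and the x labels give the number of ORs and of other starts. In activator STAT5, ORs (50.9%) and other starts (54.9%) of cluster 1 are both high, whereas in cluster 3 ORs (22.1%) lie below other starts (38.6%).

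Class I functional genes and class I pseudogenes had activator STAT5 shares with wide, overlapping confidence intervals. Counted over the reference, 24 of 57 class I functional ORs (42.1%, 29.1 to 55.9%) and 20 of 46 class I pseudogenes (43.5%, 28.9 to 58.9%) had an interval. Among listed class I ORs it was 24 of 55 functional genes (43.6%, 30.3 to 57.7%) and 20 of 36 pseudogenes (55.6%, 38.1 to 72.1%). Class II ORs, which make up the rest of the family, had 26.0% of 354 functional genes and 10.1% of 407 pseudogenes. Among listed class II ORs the shares were 31.7% of 290 and 25.8% of 159. In the inhibitor BCL6 list 5 of 57 class I functional ORs and none of 46 class I pseudogenes had an interval, which allows a share of up to 7.71% of those pseudogenes.

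By family, OR52 had the highest activator STAT5 share among families with at least 10 listed ORs, 23 of 43 (53.5%, 37.7 to 68.8%). OR10 had 41.3%, OR13 41.2%, OR51 41.0% and OR2, the family with most listed ORs, 36 of 91 (39.6%, 29.5 to 50.4%). The confidence intervals of these families overlap. OR5, a family found mainly on chromosome 11, had 15 of 73 (20.5%, 12 to 31.6%), and OR7 had 2 of 38 (5.26%, 0.644 to 17.7%).

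OR7 includes OR7E, a subfamily made up mostly of near-identical pseudogenes spread over many chromosomes. OR7E has 88 reference symbols, of which 24 were listed, OR7E24 among them as functional, and 1 had an activator STAT5 interval. The authors' treatment of reads that match several places is unknown here, so counts at OR7E and other near-identical copies are uncertain.

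**Figure D3:**
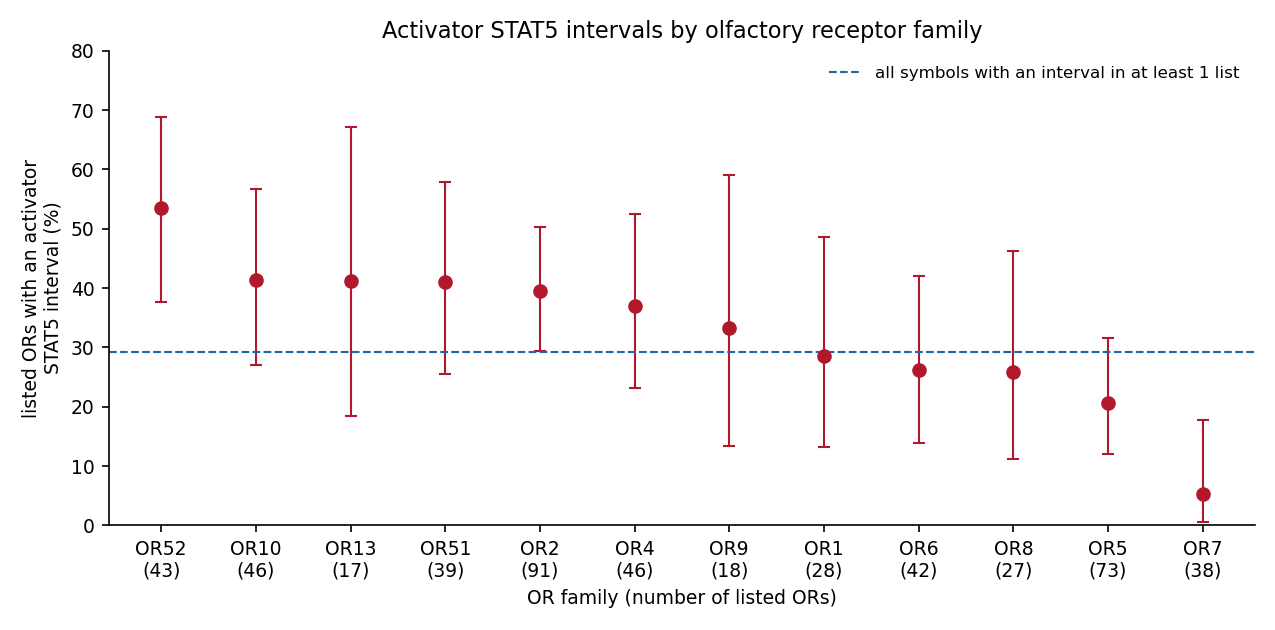
Share of listed ORs with an activator STAT5 interval (y axis, percent) in each family with at least 10 listed ORs (x axis, number of listed ORs in brackets), with 95% Clopper-Pearson intervals; the dashed line is the 29.2% of all listed symbols. OR52 stands at 53.5% and OR7 at 5.26%, and most other families span the line.

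Other clusters ranged widely on small numbers. On chromosome 9, 6 of 7 ORs at chr9:35859980-36021690 had an activator STAT5 interval, beside 4 of 7 other starts. On chromosome 19, none of 13 ORs at chr19:8841317-9390045 did, which allows a share of up to 24.7%, beside 2 of 6 other starts. In the cluster at chr6:27880097-29555684, next to the major histocompatibility complex, 10 of 33 ORs (30.3%) and 19 of 70 other starts (27.1%) had one.

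The highest activator STAT5 value at an OR was at OR52N3P, a class I pseudogene, whose 307 bp interval at chr11:5822335-5822641 had 3 and 13 in the activator STAT5 libraries. The libraries thus differed more than 4-fold at the OR with the highest value. OR4C3, in cluster 2, had 6 and 5 at a 53 bp interval (chr11:48345263-48345315). OR51E1, a class I receptor known from prostate and gut endocrine cells, had 5 and 5 at a 327 bp interval at a distance of -2505 bp from the gene start (chr11:4662146-4662472) that overlapped no control BCL6 peak. OR51G1 had 2 and 8, and OR52E6 had 7 and 3. The median value was 2 in both libraries, at ORs and over all activator STAT5 intervals alike.

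Of the 216 activator STAT5 OR intervals, 34 (15.7%) had at least 3 in both libraries, against 16.9% of all intervals. A value of 2, the lowest possible, was found at 71.3% of the OR intervals in the first library and 53.2% in the second, against 64.9% and 53.4% of all intervals.

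OR52M1, a class I gene with the highest summed treated value in cluster 1, had 5 activator STAT5 intervals, more than any other OR. Its first 3 intervals had values of 2 and 4, 2 and 3, and 2 and 3, and the other 2 had 4 and 2, and 2 and 5. The third interval, chr11:4564932-4565129, ends where a control STAT5 peak with 4 and 0 begins (chr11:4565130-4565615), and the fifth, chr11:4567034-4567091, begins where another, with 5 and 0, ends. Both of these intervals thus touch a control STAT5 peak.

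The same arrangement recurred. At OR10G9, 2 activator STAT5 intervals of 39 and 32 bp, both with 2 and 4, lie on either side of 1 control STAT5 peak of 324 bp with 0 and 2. At OR52J2P, intervals of 67 and 2 bp, both with 6 and 4, each touch a control STAT5 peak. In all, 54 of the 216 activator STAT5 OR intervals (25%, 19.4 to 31.3%) lay directly beside a control STAT5 peak, against 18.9% of all activator STAT5 intervals, and 3 of the 21 inhibitor BCL6 OR intervals lay directly beside a control BCL6 peak, 14.3% as over that whole list. Of the OR intervals, 48 of 216 (22.2%) activator STAT5 and 7 of 21 (33.3%) inhibitor BCL6 intervals were under 50 bp, near the 18.7% and 30.5% of all intervals of these lists.

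The highest inhibitor BCL6 values were at OR10V1, the last OR of cluster 3, with 2, 4 and 8 in the 3 libraries (chr11:59483517-59483612). OR56A3 had 5, 2 and 4, OR2M4 6, 2 and 2, OR8A1 2, 3 and 5, and OR9K1P 2, 3 and 5. No OR interval had at least 3 in all 3 inhibitor BCL6 libraries; 0 of 21 allows a share of up to 16.1%, which holds the 6.05% of all 1652 intervals of the list. At every inhibitor BCL6 OR interval at least 1 of the libraries therefore stood at 2.

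Among the 21 inhibitor BCL6 ORs, 16 are on chromosome 11, 3 on chromosome 1 and 1 each on chromosomes 12 and 19. OR2AT4, a receptor known from skin keratinocytes, had 3, 2 and 2. OR7G1, on chromosome 19, had 2 in all 3 libraries, as had OR5AK3P and OR5B3.

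Activator STAT5 intervals on a control BCL6 peak form the first shared list, in which STAT5 in activator cells and BCL6 in empty-vector cells are found at the same place. It held 68 of the 216 activator STAT5 OR intervals (31.5%, 25.3 to 38.1%), at 59 ORs, against 25.6% of all 14047 activator STAT5 intervals. By gene, 6.83% of ORs and 3.63% of all reference symbols were in this list, or 10.9% and 8.31% of listed ones. For functional ORs, 38 of 140 intervals (27.1%, 20.0 to 35.3%) overlapped a control BCL6 peak, and for pseudogene ORs 30 of 76 (39.5%, 28.4 to 51.4%). These confidence intervals overlap. In cluster 1 it was 31 of 76 (40.8%), and 4 of 21 in cluster 3.

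At OR52E6 the activator STAT5 libraries had 7 and 3 where the control BCL6 libraries had 0 and 8. At OR52J2P the activator STAT5 libraries had 6 and 4 and the control BCL6 libraries 0 and 7, at an overlap only 2 bp wide. OR2H5P, on chromosome 6, had 5 and 4 in the activator libraries and 0 and 3 in control BCL6, and OR10R1P, whose interval spans the gene start, had 5 and 3 in the activator libraries and 0 and 2 in control BCL6. In each of the 15 ORs plotted, the shared list gives 1 control BCL6 library a value and the other 0.

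The control values deposited in the shared list do not always equal those of the control BCL6 peak beneath. They differed at 5 of the 68 OR intervals and at 280 of all 3593, and the reason is unknown. At OR52J2P the separate control BCL6 peak had 3 and 2, at OR10H4 2 and 4 where the shared list has 0 and 4, and at OR11M1P 3 and 3 where it has 3 and 0. At OR10AD1 the peak had 2 and 2, and at OR4K5 6 and 2 where the shared list has 0 and 2. In all 5 the separate list thus has a value in both libraries.

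**Figure D4:**
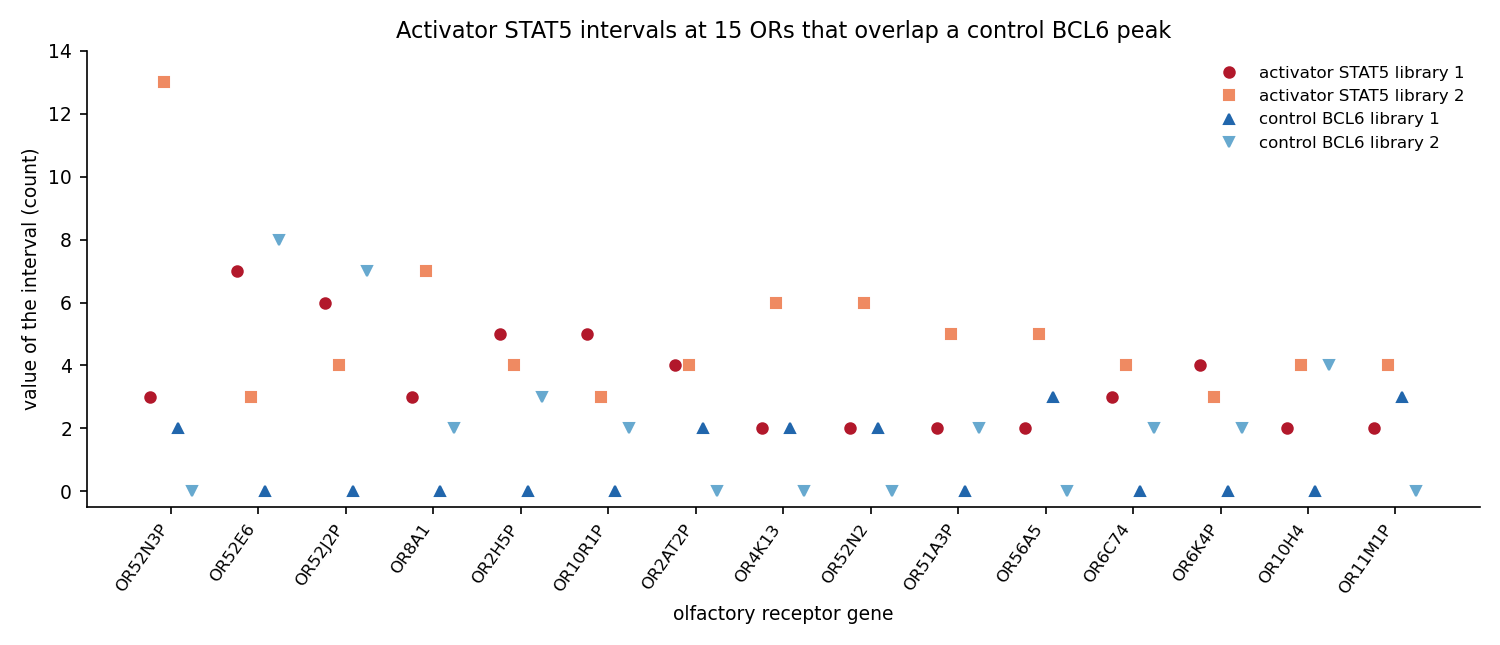
Values (y axis, counts) in 2 activator STAT5 libraries (circles, squares) and 2 control BCL6 libraries (triangles) at the 15 ORs with the highest summed activator STAT5 values among those in the shared list that met the naming rule. OR52N3P reaches 13 in the second activator STAT5 library, and in the shared list's values 1 of the control BCL6 libraries is at 0 at every OR.

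Over the whole shared list, 3 of the 68 OR intervals (4.41%) had a value in both control BCL6 libraries, against 8.91% of its 3593 intervals. By the separate control BCL6 peaks beneath, it was 8 of 68 (11.8%), against 15.0% of all 3593. In the shared list the first library alone gave the control value at 30 OR intervals and the second alone at 35. With either library left out, 18.5% or 16.7% of the activator STAT5 OR intervals overlapped a control BCL6 peak of the other.

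The second shared list, inhibitor BCL6 intervals on a control STAT5 peak, held 5 of the 21 inhibitor BCL6 OR intervals (23.8%, 8.22 to 47.2%), against 23.7% of all 1652 inhibitor BCL6 intervals. It took in 0.579% of ORs and 0.417% of all reference symbols, or 0.926% and 0.953% of listed ones. All 5 are on chromosome 11. OR10V1 had 2, 4 and 8 in inhibitor BCL6 and 5 and 0 in control STAT5. OR52E1 had 2, 3 and 3 in inhibitor BCL6 and 0 and 2 in control STAT5. OR10G9 had 3, 2 and 2 in inhibitor BCL6 and 0 and 2 in control STAT5, and OR5B3 had 2, 2 and 2 against 0 and 2. The pseudogene OR5AK3P had 2, 2 and 2 in inhibitor BCL6 and 2 and 0 in control STAT5. None of the 5 had a value in both control STAT5 libraries.

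Of the 2 treated lists, 10 ORs were in both, which is 5.65% of the 177 activator STAT5 ORs and 47.6% of the 21 inhibitor BCL6 ORs. The same 10 were also in both control lists, so they had an interval in all 4: OR8A1, OR56A3, OR10AB1P, OR9K1P, OR10G9, OR5B3, OR2M4, OR52I2, OR9G3P and OR10G7. These are 1.85% of listed ORs, against 1.07% of other listed symbols. In 2 of the 10 an activator STAT5 interval shared bases with an inhibitor BCL6 interval, 19 bp at OR10G9 and 39 bp at OR9K1P. These are 2 of the 21 inhibitor BCL6 OR intervals (9.52%, 1.17 to 30.4%), against 4.48% of all 1652. They are also 2 of the 216 activator STAT5 OR intervals (0.926%), against 0.52% of all 14047. OR8A1 had 4 activator STAT5 intervals, with 3 and 7, 2 and 2, 2 and 5, and 2 and 2, and an inhibitor BCL6 interval with 2, 3 and 5 that touched none of them.

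Most ORs of the treated lists were also in the control lists: 157 of the 177 activator STAT5 ORs had a control STAT5 interval and 162 a control BCL6 interval, and 19 and 21 of the 21 inhibitor BCL6 ORs did. The activator STAT5 shares of 88.7% and 91.5% stand beside 86.7% and 90.0% of all listed ORs, and 54.2% and 56.2% of all 864 reference ORs. A listed OR outside the treated lists has a control interval by the rule of listing. The comparison with listed ORs therefore cannot show whether treated ORs differ from the rest. Of the 540 listed ORs, 93 (17.2%) were in 1 list only, against 20.7% of other listed symbols. For 4 of the 93 this was the activator STAT5 list, a count not made for other symbols.

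The 2 control groups share an entry rule and can be compared by library. OR intervals made up 1.41% and 1.51% of those held by the control STAT5 libraries, against 1.65% and 1.47% in the control BCL6 libraries. The groups overlap, and the means of 1.46% ± 0.0716 and 1.56% ± 0.127 (SD, n = 2 each) differed by -0.101 points (exact permutation test, two-sided, p = 0.667, where 0.333 is the smallest that 2 against 2 allows). Between antibodies, 362 of 997 control STAT5 OR intervals (36.3%, 33.3 to 39.4%) overlapped a control BCL6 peak, against 30.2% over all genes, and 356 of 1051 control BCL6 OR intervals (33.9%, 31.0 to 36.8%) overlapped a control STAT5 peak, against 30.1%.

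Few control OR intervals were found in both libraries of a group. It was 97 of 997 in control STAT5 (9.73%, 7.96 to 11.7%) and 110 of 1051 in control BCL6 (10.5%, 8.68 to 12.5%), against 9.34% and 9.19% over all intervals. Values of at least 3 in both were found at 6 control STAT5 and 12 control BCL6 OR intervals, 0.602% and 1.14% of them, against 0.943% and 0.975% over all intervals. The highest sums, named here after their values were seen, were at OR52P1P with 4 and 7 in control STAT5, and, tied at 10 in control BCL6, at OR10D3 and OR51Q1 with 4 and 6, OR51B2 with 3 and 7, and OR52B5P and OR6B1 with 7 and 3. All 6 of these control STAT5 intervals and 8 of the 12 control BCL6 intervals lie on chromosome 11. That chromosome holds 50.4% of all control STAT5 and 51.7% of all control BCL6 OR intervals.

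In activator STAT5 no bin at the gene start stood out. Bins of 250 bp from 3000 bp upstream to 1000 bp downstream each held 3.24% to 9.72% of the OR intervals, and the bins on either side of the start held 5.56% and 6.02%. Of the OR intervals, 7 activator STAT5, 2 inhibitor BCL6, 78 control STAT5 and 94 control BCL6 spanned the start itself. These are 3.24%, 9.52%, 7.82% and 8.94% of the OR intervals, against 3.67%, 2.54%, 7.84% and 7.67% of all intervals, and the second share rests on 2 of 21. By the authors' distance, 80.6% of activator STAT5 OR intervals lay upstream of the start against 73.6% of all, with a median of -1306 against -1009 bp. For control STAT5 the medians were -1204 and -996 bp, for control BCL6 -1018 and -1032 bp, and for inhibitor BCL6 -758 and -1101 bp over only 21 OR intervals. The OR gene models in the files have a median length of 953 bp, about that of the coding region alone, so for many ORs the start used is the start codon and not the transcription start.

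**Figure D5:**
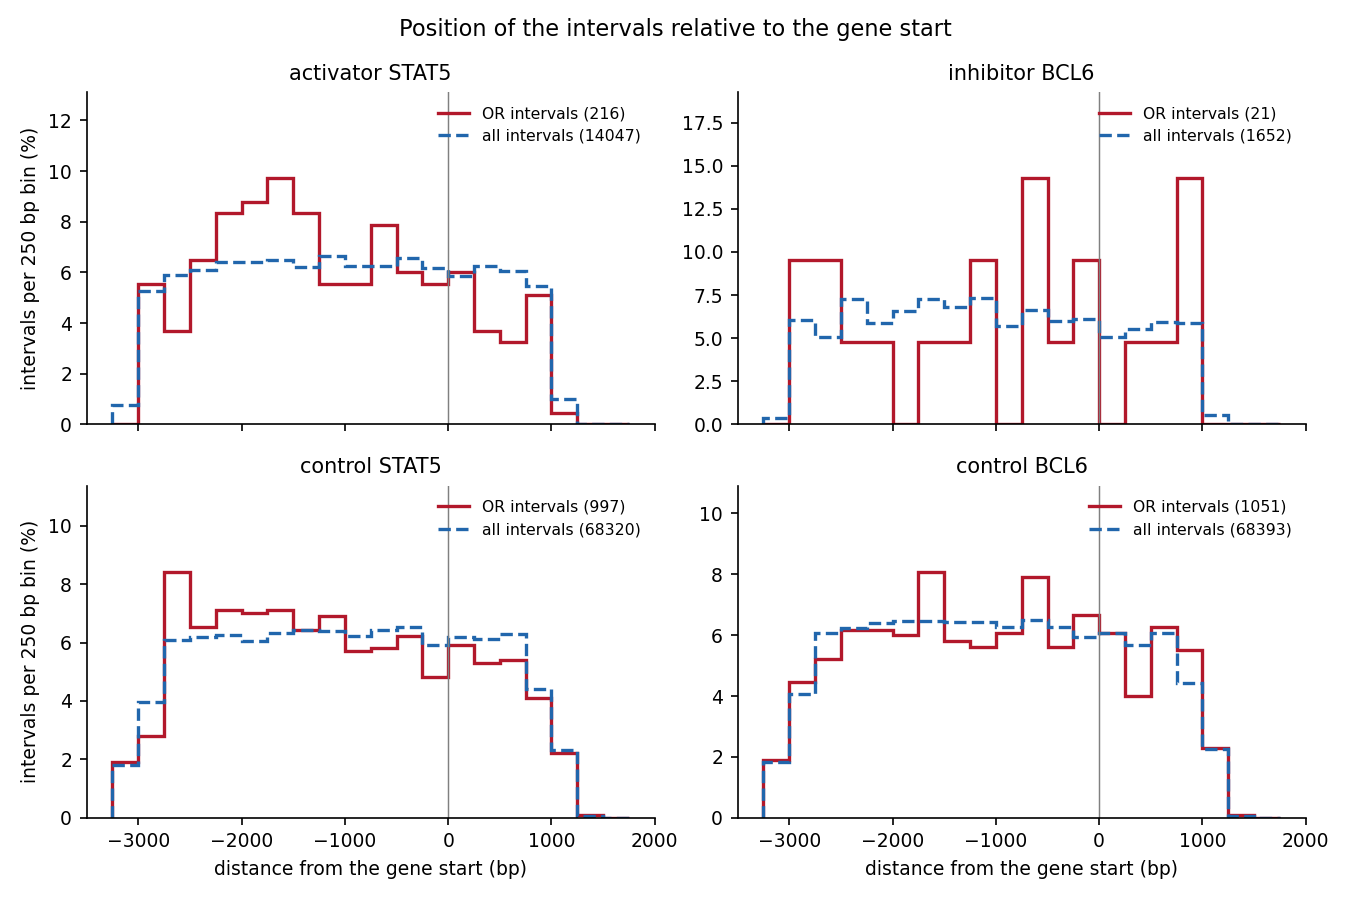
Share of intervals per 250 bp bin (y axis, percent) by the distance of the interval's midpoint from the gene start (x axis, bp), for OR intervals (solid) and all intervals (dashed) in each list. Activator STAT5 OR bins run between 3.24% and 9.72% from -3000 to 1000 bp, and the 21 inhibitor BCL6 OR intervals are too few for a shape.

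Widths at ORs were close to those of the whole lists, with medians of 141 and 142 bp in activator STAT5, 88 and 85 bp in inhibitor BCL6, 305 and 304 bp in control STAT5, and 307 and 305 bp in control BCL6.

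ORs reported outside the nose were a list of 16. Of these, 5 (31.2%, 11 to 58.7%) had an activator STAT5 interval. They were OR51E1 as above, OR1A2 with 2 and 2, OR2C3 with 2 and 2, OR10A6 with 3 and 2, and OR1G1 with 3 and 3. OR1G1 is known from gut endocrine cells, and its 21 bp interval ends where a control STAT5 peak with 2 and 2 begins. OR2AT4 was the only one in the inhibitor BCL6 list (6.25%, 0.158 to 30.2%). None was in a shared list, and 0 of 16 allows a share of up to 20.6%. For all listed ORs, activator STAT5 had 32.8%, inhibitor BCL6 3.89%, and the shared lists 10.9% (with control BCL6) and 0.926% (with control STAT5). These shares lie within the limits for the 16 ORs. In the control lists, 14 had a control STAT5 and 15 a control BCL6 interval, shares of 87.5% and 93.8% that stand beside 86.7% and 90.0% for all listed ORs. OR51B4, reported in colon cancer cells, had 3 control STAT5 intervals, of which the highest had 6 and 0, a control BCL6 interval with 3 and 0, and none in a treated list.

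Of 24 genes for olfactory signalling and OR choice, 4 (16.7%, 4.74 to 37.4%) had an activator STAT5 interval and none an inhibitor BCL6 interval, which allows up to 14.2%. Other protein-coding genes had 26.0% and 3.29%, which lie within these limits. GNAL, the olfactory G protein alpha subunit, had 3 and 2, and GNG13, a gamma subunit, had 2 and 3. The GNG13 interval is 39 bp wide and ends where a control STAT5 peak with 0 and 2 begins. LDB1, a cofactor of LHX2 in OR enhancer hubs of mouse neurons, had 2 and 6, and CBX5, the heterochromatin protein HP1 alpha, had 2 and 5. LDB1 and CBX5 were also in the shared list with control BCL6. Other chemosensory families had activator STAT5 intervals at 2 of 9 trace amine receptor (TAAR), 7 of 111 vomeronasal (VN1R) and 3 of 35 bitter taste receptor (TAS2R) symbols, or 22.2%, 6.31% and 8.57%. All symbols had 12.8%, other protein-coding genes 26.0% and other pseudogenes 9.48%.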

How the data were processed

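The authors deposited 6 lists of genomic intervals near gene starts in which each interval has a whole number for each library, read here as a count; the quantity is not named in the files. Bowtie 0.12.7, CASAVA 1.8.2 and the build GRCh37 are named per the submitters' processing notes. For the peak caller, its threshold and reads with several matches: not given in the sources used here. Per the file headers, each interval has a width and a distance, which was found to run from its lower coordinate to an Ensembl gene start, within 3000 bp upstream and 1000 bp downstream.

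Lists were described by the libraries they hold: 4 separate lists and 2 shared ones. Each distinct interval was counted once. Symbols were matched to the RefSeq gene table (GRCh38.p14, names and gene order only): 527 of 540 OR symbols matched directly and 13 by an older symbol; 15 gene identifiers described as ORs had no symbol and were left out. Shares were given over all reference symbols and over symbols with an interval in at least 1 separate list. Overlap means at least 1 shared base. The members, lists and comparisons were chosen with earlier results of these data known. Library depth is unknown; precision is given by Clopper-Pearson and Newcombe intervals at 95%, counting error only, and the 2 against 2 comparison used an exact permutation test. No test over genes was run.

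Named ORs were those of the inhibitor BCL6 shared list; 15 of the 43 in the activator STAT5 shared list with a value of at least 3 in 1 activator STAT5 library and at least 2 in 1 control BCL6 library, by summed activator value; the 5 highest sums of either treated list; ORs in all 4 lists; the OR with the highest summed treated value in each chromosome 11 cluster; and the lists of ORs known outside the nose and of olfactory signalling genes. Others are named as examples of sequence, of a cluster or of high control values, after their values were seen. Alternatives changed the least value, the control libraries, the distance, the width, the gene set, the rule for pseudogenes, the neighbours and the overlap. The code for confidence intervals, for overlap and for intervals directly beside each other was tested on simulated data. The choice of neighbouring genes was not. Python 3.11.15, pandas 2.3.3, numpy 2.4.6, scipy 1.17.1 and matplotlib 3.10.9 were used. Not analysed here were 5 libraries, from inhibitor STAT5 and activator BCL6.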

Additional observations from a re-analysis of the deposited data

How the results depend on the processing

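Depth is unknown and most values are 2 or 3, so single ORs are given as values. Over the alternatives, 139 values stayed within the confidence interval or the 1.5-fold range of the value reported or, for the library difference, kept its direction. Of the others, 61 moved outside it and 2 turned where the reported interval excludes 0. In all 6 values changed sign; for 4 of them the reported interval already holds 0. With a value of at least 3 (every library in treated lists, 1 library in control lists), 31 ORs were in activator STAT5, 0 in inhibitor BCL6, 237 in control STAT5, 252 in control BCL6, and 10 and 0 in the shared lists with control BCL6 and control STAT5. Functional minus pseudogene ORs then gave 1.51, 0, 23.8 and 16.3 points in activator STAT5, inhibitor BCL6, control STAT5 and control BCL6, chromosome 11 minus elsewhere 0 in inhibitor BCL6, functional ORs minus neighbours -1.32 in activator STAT5, and pseudogene ORs minus neighbours 1.76 in activator STAT5 and 3.05 in control STAT5. With a control value in both libraries, 94 control STAT5 and 97 control BCL6 ORs remained, and 3 and 0 in the shared lists; functional minus pseudogene gave 5.24 and 6.89 points, functional minus neighbours 2.59 and 2.70, and pseudogene minus neighbours 4.40 and 4.52 (control STAT5, control BCL6). From 1000 bp upstream to 500 bp downstream, ORs numbered 69, 8, 266 and 301 in the separate lists and 21 and 2 in the shared ones; functional minus pseudogene gave 7.97, 0.0902, 23.4 and 24 points, pseudogene minus neighbours 1.14 in activator STAT5 and 3.15 in control STAT5, and functional minus neighbours 1.48 in control STAT5. Over listed genes only, functional minus pseudogene gave 2.34 (activator STAT5), 6.42 (control STAT5) and 5.22 points (control BCL6), functional minus neighbours 2.26 in control STAT5, and pseudogene minus neighbours turned to -3.33 in control STAT5 and gave 6.61 in control BCL6. Without cluster 1, chosen after seeing the data, and over listed genes only, chromosome 11 minus elsewhere turned to -3.87 points in activator STAT5. It gave 5.85 in inhibitor BCL6 and -4.00 in control STAT5. The values these are held against are over the reference, so the cluster and the gene set changed together here. With 2 neighbours, functional ORs minus neighbours gave 13.1 (control STAT5) and 16.9 points (control BCL6). Values in both control libraries were at 15.5% and 19.1% of OR intervals with at least 3 in 1 library, and at 17.2% and 18.4% of those at least 300 bp wide (control STAT5, control BCL6). With at least 0.5 of the interval's width overlapped, 23.1% of activator STAT5 OR intervals were on a control BCL6 peak. Leaving out control libraries in turn gave 28 to 37 activator STAT5 and 2 to 3 inhibitor BCL6 shared ORs, 322 to 375 control STAT5 and 363 to 375 control BCL6 ORs, functional minus pseudogene 25 to 34.2 points (control STAT5) and 28.1 to 30.8 (control BCL6), functional minus neighbours 2.53 to 8.14 (control STAT5), and 16.7% to 18.5% of activator STAT5 OR intervals on a control BCL6 peak. No paired analysis was possible because the labels give library numbers but no replicate numbers, so replicates are numbered by accession order, which pairs no samples. The cause of these shifts was not tested, beyond the fewer intervals that a stricter rule leaves.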
